A study of Mus musculus with 10 samples.

Results

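The Rab GTPase genes were examined along the abdominal aorta of ApoE-/- mice, in RNA from below the kidneys (infrarenal) and from above them (suprarenal). The members were all genes whose single annotated symbol is Rab followed by a number and optional letters, and Rab-interacting proteins were left out. This gave 56 genes of 17991 on the array. Where 11 of them had 2 probes, the probe of highest mean over all arrays stood for the gene. RefSeq lists 59 such genes, and Rab26, Rab35 and Rab42 were not analysed here. The family was taken up because Rab5a had stood out in an earlier look at the same arrays, so the regional values of Rab5a are a description without a test.

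Rab proteins are small GTPases of the Ras superfamily that mark the membranes of endosomes, Golgi, lysosomes and secretory vesicles. Exchange factors load them with GTP, upon which they recruit effectors that move, tether or fuse vesicles, and GTPase-activating proteins switch them off. In the vessel wall this traffic carries the uptake of lipoproteins, the recycling of integrins and receptors, and the secretion of matrix.

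All animals were male ApoE-/- mice aged 14 weeks, which lack apolipoprotein E and are prone to atherosclerosis. The aortas of 2 mice made a pool. Each of 5 pools, numbered 1, 6, 8, 11 and 12, was cut into an infrarenal and a suprarenal part, which gave 5 arrays per region and no wild-type arrays. A value stands for pooled whole tissue, so fewer cells of a type and less RNA per cell cannot be told apart.

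Values below are log2 of the deposited intensities, whose medians lay between 1.001 and 1.003 on every array. Pairs of arrays had correlations from 0.962 to 0.975 over the probes, taken as a description since probes depend on one another. The probe of the deleted gene, Apoe, read between -5.09 and -2.57 and was among the dimmest 30% of probes. Smooth muscle markers of the labelled tissue were present: all 8 were measured, none was among the dimmest 30%, and their mean lay between 5.93 and 6.29 on the 10 arrays. Between 0.34 and 0.54 µg of RNA was amplified per array. The number of arrays limits the precision: for a typical Rab gene the 95% interval reached 0.28 log2 units to either side of its regional difference.

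Most Rab genes read slightly lower in infrarenal aorta, and no Rab gene passed the test. Differences, infrarenal minus suprarenal, were negative for 46 of 56 Rab genes, or 82.1%, where 60.4% of all genes were negative. Their median difference was -0.15 log2 units and that of all genes was -0.05. Of the 56, 53 lay outside the dimmest 30% of probes, and 44 of these were negative, beside 66.5% of all genes outside it. After quantile normalization the count was 38 of 56, or 67.9%, beside 49.7% of all genes, and the medians were -0.06 and 0.002. Without pool 6 and without pool 12 it was 43 of 56 each time. No share of all genes is given beside the 43, so it cannot tell the family from a shift in all genes.

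Tested with limma with the pool as a block, 0 of 56 Rab genes had an adjusted p under 0.05, as 0 of all 36061 probes had (0% called). The smallest adjusted p of a Rab gene was 0.639, shared by several genes, and that over all probes was 0.110. At an unadjusted p under 0.05 there were 4 Rab genes, all with negative differences (Rab5a, Rab4b, Rab1b and Rab14). That is 7.14% of the family, beside 8.05% of all genes, of which 5.89% were on the negative and 2.17% on the positive side. These counts include Rab5a and the comparison by which it was picked, and they are a description. This count was 13 without pool 1, where 9.42% of all genes passed, and 2 without pool 6, where 3.99% did. With the arrays unpaired (no replicate block) it was 9, and 7.81% of all genes passed.

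The pools differed in how far they shared these signs. Of the Rab genes 7 were negative in every pool (12.5%) and 0 positive in every pool, where 6.23% of all genes were negative and 2.92% positive throughout. The 7 were Rab5a, Rab4b, Rab1b, Rab14, Rab3d, Rab1a and Rab4a. For Rab5a and Rab4b, 3.57% of the family, the 5 infrarenal values all lay below the 5 suprarenal values, where 0.884% of all genes had that order. Outside the dimmest 30% of probes the shares were 3.77% and 1.11%. Both counts include Rab5a, which led to the choice of the family, so they are a description. By pool the family median was 0.03 in pool 1, -0.24 in pool 6, -0.16 in pool 8, -0.07 in pool 11 and -0.15 in pool 12. The median of all genes in the same order was 0.03, -0.03, -0.10, -0.05 and -0.06, so the 2 medians lay close together in pools 1 and 11. In pool 1 only 25 of 56 Rab genes were negative, in pool 6 there were 43, and in pool 12 there were 42. Of all 17991 genes, 8243, 9457 and 10183 were negative in these pools.

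**Figure D1:**
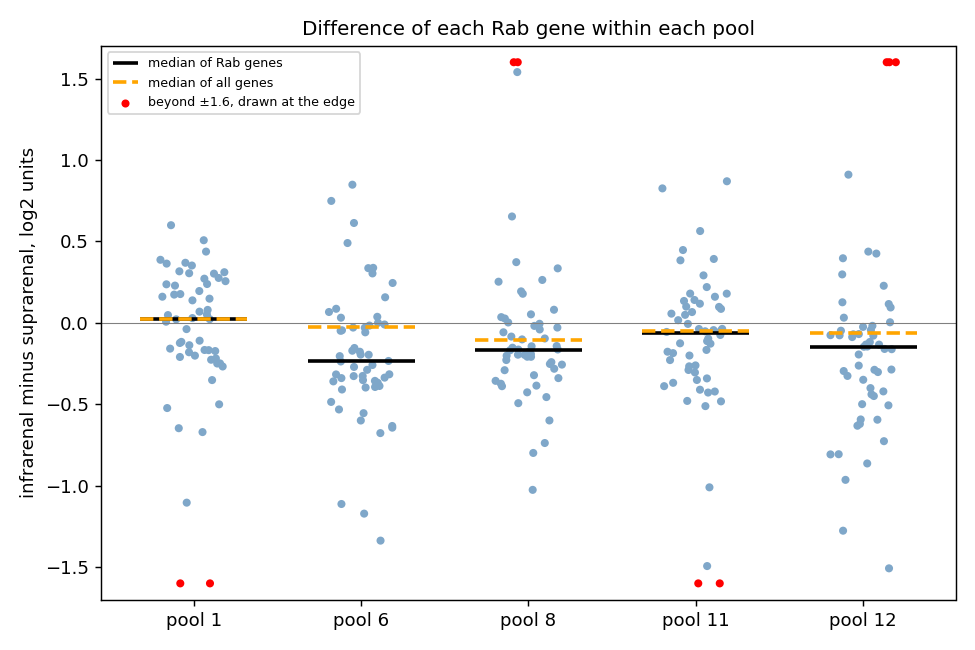
Difference of each Rab gene within each pool, infrarenal minus suprarenal in log2 units; each point is a gene, the solid line is the median of the Rab genes and the dashed line that of all genes; red points lie beyond ±1.6 and are drawn at the edge. The Rab median lies at 0.03 in pool 1, where it meets the median of all genes, and at -0.24 in pool 6, where all genes have a median of -0.03.

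Macrophage markers read lower in infrarenal aorta beside these values, and none of them had an adjusted p under 0.05 (limma). The mean of 6 measured macrophage markers of 8 listed lay between 3.72 and 3.95 on infrarenal and between 3.96 and 4.46 on suprarenal arrays, and all 6 were negative. By pool its difference was -0.09, -0.53, -0.56, -0.02 and -0.64 in pools 1, 6, 8, 11 and 12, and among the defining markers Adgre1 read between -0.72 and 0.88 over all arrays while C1qb read between 5.66 and 6.63. All 7 measured adipocyte and all 8 measured sympathetic neuron and chromaffin markers were negative too, beside 60.4% of all genes. Of the mast cell markers 1 of 7 was negative, and of the skeletal muscle markers 1 of 9. Brown adipocyte markers, 9 of 9 measured and 8 of them negative, lay between 2.96 and 5.40 on infrarenal and between 2.94 and 5.45 on suprarenal arrays. Their mean differed by -2.13 in pool 6 and 1.25 in pool 12. The 5.40, on infrarenal array 1, leaves out Dio2, which had no value there. On every other array Dio2 read below the mean of the list, so the 5.40 is not strictly comparable. The part of macrophages and of fat in the Rab values was not tested.

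The early endosome Rab genes did not share a direction: 4 of 6 were negative, with a median of -0.12 and a range from -0.41 to 0.19. Rab5a, which drives the fusion of incoming vesicles with early endosomes, had infrarenal values of 3.52, 3.21, 3.41, 3.39 and 3.35 in pools 1, 6, 8, 11 and 12. Its suprarenal values in the same order were 3.75, 3.77, 3.67, 3.88 and 3.85. The regions did not overlap, and every pool had its lower value below the kidneys. The difference was -0.41 ± 0.08 log2 units (SE, n = 5 pools), or 0.755 of the suprarenal level. Among the probes standing for the 56 genes it was the most negative, while the second Rab10 probe gave -0.42. The Rab5a difference was -0.31 after quantile normalization and lay between -0.45 and -0.37 with 1 pool left out.

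The paralogues Rab5b and Rab5c encode proteins of the same early endosome machinery. Rab5b read -0.79, 0.08, -0.06, -0.09 and -0.28 in infrarenal pools 1, 6, 8, 11 and 12, and -0.29, 0.47, 0.23, -0.27 and 0.31 in suprarenal ones. These ranges overlapped, 4 of 5 pools were lower below the kidneys and pool 11 was not, and the difference was -0.32 ± 0.14 (SE, n = 5 pools). Rab5c read 3.53, 3.96, 4.03, 4.12 and 4.28 in the infrarenal pools and 4.06, 4.24, 3.98, 4.07 and 4.05 in the suprarenal ones. Here 3 pools were higher below the kidneys, and the difference of -0.09 ± 0.12 (SE) had a 95% interval from -0.36 to 0.18. Whether the 3 paralogues differ from one another in their regional difference was not tested.

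The other early endosome genes were Rab21, which acts in integrin endocytosis, Rab22a and Rab31. Rab21 had a difference of -0.15 ± 0.08 (SE), and its second probe gave -0.20. Rab22a and Rab31, close relatives that work between endosomes and the trans-Golgi network, had positive differences of 0.19 ± 0.12 and 0.17 ± 0.10 (SE), each positive in 4 of 5 pools. The second, dimmer Rab31 probe gave -0.04, so the sign of Rab31 depends on the probe.

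Recycling Rab genes were negative in 8 of 9 cases, with a median of -0.18. Rab4b, which returns cargo such as the transferrin receptor from early endosomes to the cell surface, read 4.64, 4.62, 4.75, 4.70 and 4.55 in infrarenal pools 1, 6, 8, 11 and 12. The suprarenal values were 4.82, 4.80, 5.03, 4.77 and 4.85, each above every infrarenal one. The difference was -0.20 ± 0.07 (SE, n = 5 pools) and was -0.07 after quantile normalization.

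Rab4a, the fast-recycling paralogue of Rab4b, read 0.99, 0.75, 0.93, 1.03 and 0.81 below the kidneys and 1.16, 1.06, 0.97, 1.21 and 0.97 above them, with a difference of -0.17 ± 0.09 (SE). Rab14, which acts between the Golgi and endosomes, read 5.68, 5.81, 5.88, 5.79 and 5.92 in infrarenal and 5.81, 6.18, 6.02, 5.995 and 5.99 in suprarenal aorta. For both genes every pool had the lower value below the kidneys, although the regions overlapped. The Rab14 difference of -0.18 ± 0.07 (SE) became -0.06 after quantile normalization. The recycling endosome genes Rab11a and Rab11b differed by -0.06 ± 0.10 and -0.22 ± 0.16 (SE). Rab11a had no value on suprarenal array 8, which the fit left out, and the second Rab11b probe gave 0.02. Rab15 and Rab20 differed by -0.08 and -0.28. Rab17, known from epithelia, read -0.37, -0.30, -0.98, -0.47 and 0.06 below and -0.97, 0.10, 0.05, 0.54 and -0.85 above the kidneys. It was lower below the kidneys in pools 6, 8 and 11 and higher in pools 1 and 12, and the difference was -0.18 ± 0.30 (SE). Rab25, also epithelial, was among the dimmest 30% and differed by 0.29 ± 0.42 (SE).

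**Figure D2:**
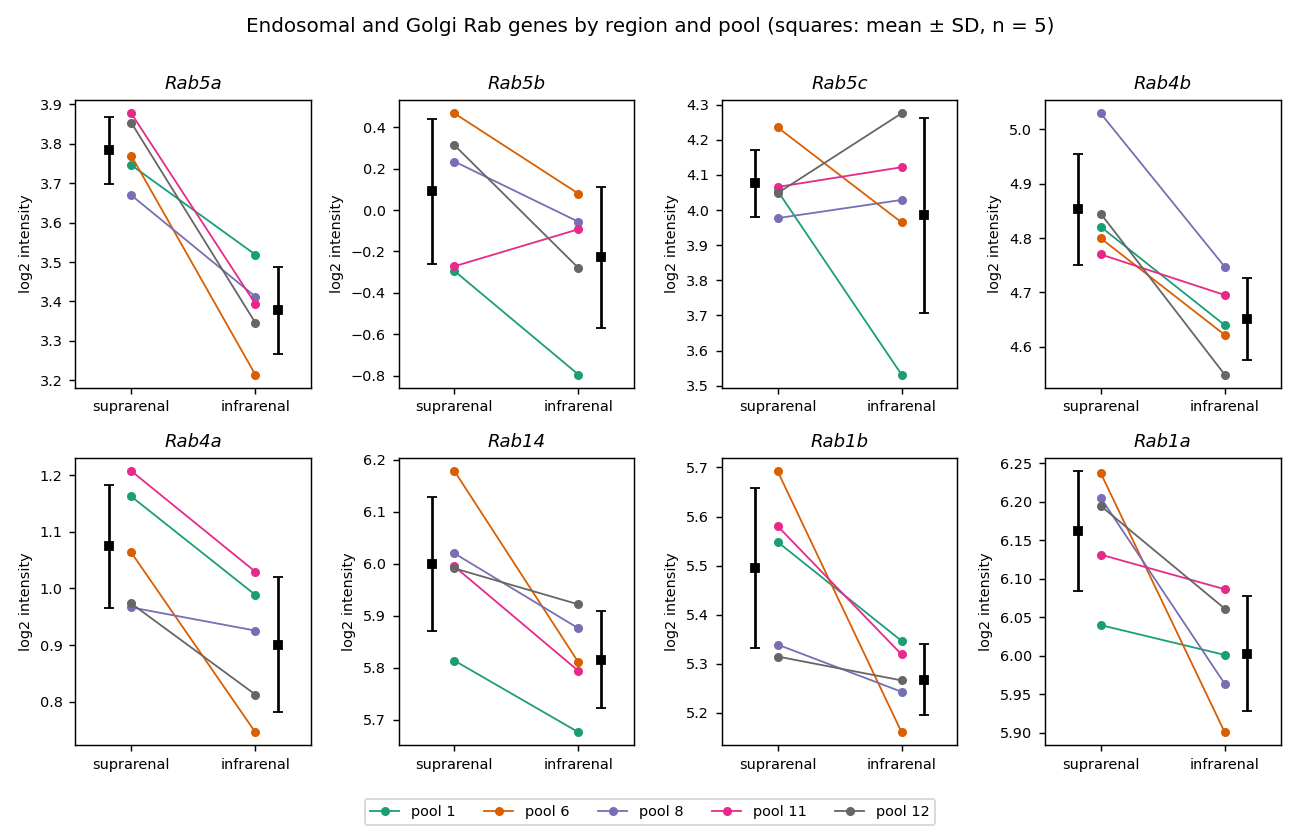
Log2 intensity of 8 Rab genes in the suprarenal and infrarenal part of each pool, with a line per pool and squares for the mean ± SD (n = 5). Lines slope downwards in every pool for Rab5a, Rab4b, Rab4a, Rab14, Rab1b and Rab1a, whereas pool 11 rises for Rab5b, and pools 8, 11 and 12 rise for Rab5c; the vertical scale differs between panels.

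The upstream sequences of Rab5a and Rab4b are shown because these were the 2 members whose regions did not overlap. They are the 250 bases before the RefSeq start site in GRCm38.p6, at chr17:53478984-53479233 on the plus strand for Rab5a and at chr7:27178884-27179133 on the minus strand for Rab4b. Capitals mark matches on either strand to the E-box CACGTG, the cyclic AMP response element TGACGTCA, the ETS core CCGGAAG, the CCAAT box and the E2 box CAGCTG, a set chosen after the sequences were seen. No match overlapped another.
Rab5a: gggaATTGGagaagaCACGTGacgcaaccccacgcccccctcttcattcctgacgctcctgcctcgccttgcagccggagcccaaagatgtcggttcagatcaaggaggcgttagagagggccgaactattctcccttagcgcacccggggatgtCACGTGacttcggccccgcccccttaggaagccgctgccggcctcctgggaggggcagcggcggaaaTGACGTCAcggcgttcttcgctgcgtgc
Rab4b: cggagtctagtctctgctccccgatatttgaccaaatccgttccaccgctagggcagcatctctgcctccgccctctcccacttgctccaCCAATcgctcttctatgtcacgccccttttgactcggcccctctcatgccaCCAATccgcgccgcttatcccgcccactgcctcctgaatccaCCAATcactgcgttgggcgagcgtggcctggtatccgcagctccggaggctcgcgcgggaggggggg
The Rab5a window held 2 E-boxes, with first bases at -235 and -95, a cyclic AMP response element at -28 and 1 CCAAT box at -246. The Rab4b window held 3 CCAAT boxes, at -160, -109 and -67, and none of the other motifs. Over the first listed window of each of 27025 genes, 6.05% held CACGTG, 1.62% TGACGTCA, 34.5% CCAAT, 7.05% CCGGAAG and 12.8% CAGCTG. Over 46 Rab genes with an entry the shares were 8.70%, 4.35%, 47.8%, 6.52% and 15.2%, and their median GC content was 60.6% beside 52.0% for all. The other Rab genes with an E-box were Rab20, Rab21 and Rab23, and the other with a cyclic AMP response element was Rab25. The regional differences of the first 3 were -0.28, -0.15 and -0.08, and that of the dim Rab25 was 0.29 ± 0.42 (SE). A match describes letters and not binding. Entries were missing for Rab18, Rab27b, Rab2a, Rab30, Rab36, Rab37, Rab38, Rab44, Rab4a and Rab7b.

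Late endosome, lysosome and autophagy Rab genes were negative in 6 of 6 cases, from -0.24 to -0.07, and none of them was negative in every pool. Rab7, which directs late endosomes to fuse with lysosomes, read 6.01, 5.55, 5.83, 5.75 and 5.75 in infrarenal pools 1, 6, 8, 11 and 12 and 5.88, 5.89, 5.85, 6.01 and 5.77 in suprarenal ones. The ranges overlapped broadly, and the difference was -0.10 ± 0.09 (SE) with a 95% interval from -0.31 to 0.10. Rab9, which returns mannose 6-phosphate receptors to the Golgi, had a difference of -0.18 ± 0.11 (SE) and its paralogue Rab9b one of -0.17 ± 0.20. Rab12 and Rab24, both tied to autophagy, differed by -0.24 ± 0.13 and -0.21 ± 0.14 (SE). Rab7b differed by -0.07.

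Among 16 Rab genes of the endoplasmic reticulum and Golgi, 13 were negative, with a median of -0.14. Rab1b and Rab1a, which carry cargo from the endoplasmic reticulum to the Golgi, were negative in every pool. Rab1b read 5.35, 5.16, 5.24, 5.32 and 5.27 in infrarenal and 5.55, 5.69, 5.34, 5.58 and 5.31 in suprarenal pools 1, 6, 8, 11 and 12. The regions overlapped, since suprarenal pools 8 and 12 reached down to the infrarenal range. The difference was -0.23 ± 0.09 (SE, n = 5 pools), -0.15 without pool 6 and -0.10 after quantile normalization. Rab1a read 6.001, 5.90, 5.96, 6.09 and 6.06 in infrarenal and 6.04, 6.24, 6.21, 6.13 and 6.19 in suprarenal aorta, with a difference of -0.16 ± 0.08 (SE) that was -0.02 after quantile normalization.

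Rab2a, which acts at the Golgi, had a difference of -0.27 ± 0.12 (SE), positive in pool 1, while its paralogue Rab2b differed by -0.01 ± 0.08. Rab18, found on the endoplasmic reticulum and on lipid droplets, varied most of this group. It read 3.31, 3.17, 2.77, 3.38 and 2.21 below the kidneys and 3.16, 3.48, 3.50, 2.93 and 3.71 above them in pools 1, 6, 8, 11 and 12. The lowest and the highest value were the 2 parts of pool 12, and the difference of -0.39 ± 0.25 (SE) was -0.11 without that pool. Rab19 differed by -0.37 ± 0.17 (SE), with -1.11 in pool 6. The Golgi genes Rab6a and Rab6b differed by -0.15 ± 0.10 and -0.23 ± 0.18 (SE), Rab34 by -0.18 and Rab33b by -0.13. Rab39, Rab33a and Rab30 lay between -0.07 and -0.01, and Rab43, Rab36 and Rab39b between 0.05 and 0.10.

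**Figure D3:**
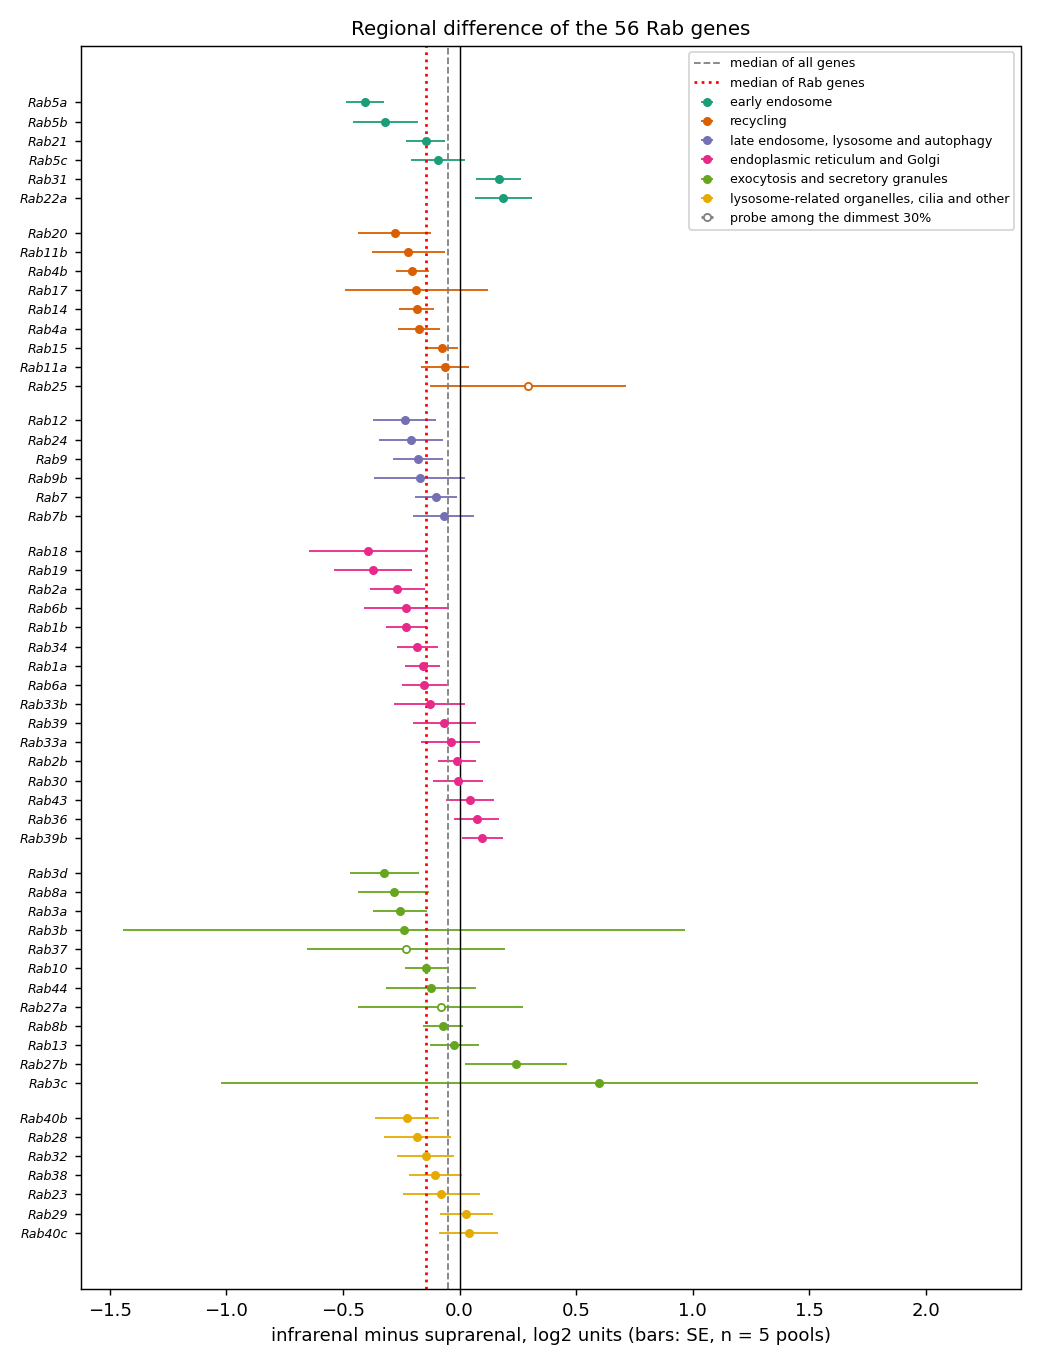
Regional difference of all 56 Rab genes, infrarenal minus suprarenal in log2 units, grouped by membrane of action, with bars for the SE (n = 5 pools); open points are probes among the dimmest 30%. Points lie mostly left of 0, around the family median of -0.15, with Rab5a at -0.41 at the low end; Rab3b and Rab3c have the widest bars, with SEs of 1.20 and 1.62.

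Rab genes of exocytosis and secretory granules held the members that varied most. They were Rab3b and Rab3c, which act with synaptic and hormone-containing vesicles. Rab3b spanned 4.99 log2 units over the 10 arrays, where Rab17, the next widest of the Rab genes outside the dimmest 30% after this pair, spanned 1.52. Rab3b read -0.61, -0.06, 2.78, -0.81 and 2.38 in infrarenal pools 1, 6, 8, 11 and 12, and 3.88, 0.22, -0.83, 2.71 and -1.11 in suprarenal ones. It was high in the infrarenal parts of pools 8 and 12 and in the suprarenal parts of pools 1 and 11. Rab3c read -0.98, -0.60, 2.16, -2.17 and 2.25 below the kidneys and 3.46, -0.90, -4.13, 2.25 and -3.00 above them, high on the same arrays. Its 3 lowest readings lay below -1.59, the mean under which a probe counted among the dimmest 30%, and 2 of them within the range of the Apoe probe, so they show only that Rab3c was dim there and give no exact span. The second Rab3c probe was among the dimmest 30% and followed the first only in part. It was highest on suprarenal array 1, at -1.16, and infrarenal array 8, at -1.75, where the first was high. On infrarenal array 12 the first was high too, but the second read -4.06. Suprarenal array 11, at -2.61, lay below infrarenal array 6, at -2.17, where the first was not high.

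Because the high arrays fell in both regions, the regional differences were small beside their errors. They were -0.24 ± 1.20 for Rab3b and 0.60 ± 1.62 for Rab3c (SE, n = 5 pools), and the value of Rab3c rests in part on its dim readings. The pool values of Rab3b were -4.49, -0.29, 3.61, -3.51 and 3.49. Both signs changed with single pools left out: Rab3b was 0.82 without pool 1 and -1.20 without pool 8, and Rab3c 1.86 without pool 1 and -0.83 without pool 8.

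Several markers of sympathetic neurons and chromaffin cells, though not all, were high on those same arrays. Of 9 listed, 8 were measured, 1 of them among the dimmest 30%, and their mean read 0.74, 0.88, 2.22, 1.003 and 2.08 in infrarenal pools 1, 6, 8, 11 and 12. In suprarenal aorta it read 3.12, 1.10, 0.82, 2.24 and 0.65. Th, the rate-limiting enzyme of catecholamine synthesis, read 1.56, 2.07, 4.02, 1.66 and 3.89 below and 5.10, 2.09, 1.53, 4.09 and 1.37 above the kidneys. Snap25, a fusion protein of synaptic vesicles, was likewise at 3.97 and 3.91 in infrarenal pools 8 and 12 and at 5.13 and 3.92 in suprarenal pools 1 and 11, and between 1.73 and 2.38 elsewhere. Ddc, Stmn2 and Syt1 had their 4 highest values on these arrays as well. Dbh, which makes noradrenaline, did not follow and read between 4.67 and 5.13 on all arrays. Chga had its 4 highest values on the same arrays, though by little in infrarenal aorta. It read 1.76 and 1.69 in suprarenal pools 1 and 11 and 1.284 and 1.308 in infrarenal pools 8 and 12. Infrarenal pool 1 was close behind at 1.277. The dim Chgb was higher in infrarenal pool 11, at -1.91, than in pool 12, at -2.84, and was the only marker of the list to reach the floor on any array. The part of nerve tissue in the Rab3b and Rab3c values was not tested.

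**Figure D4:**
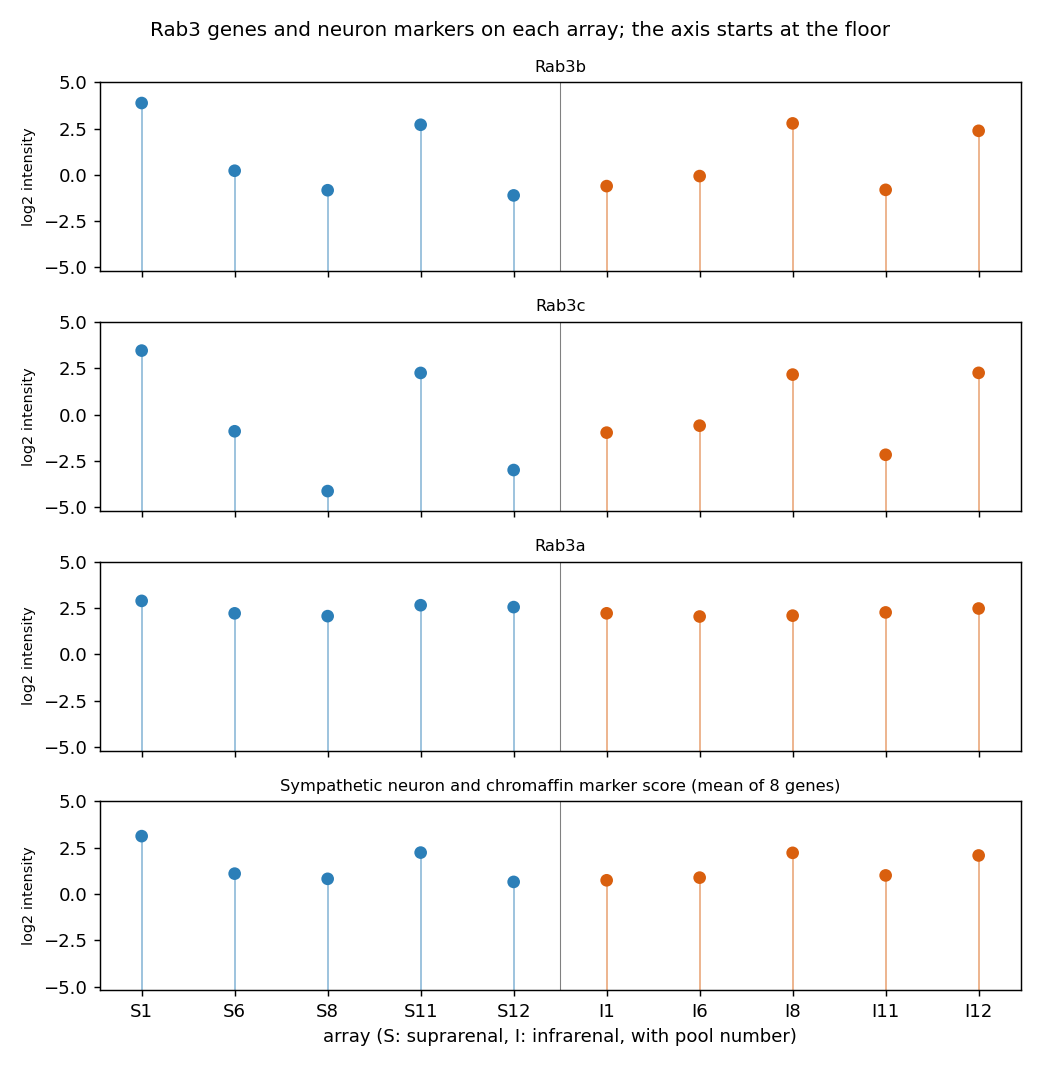
Log2 intensity of Rab3b, Rab3c and Rab3a and the mean of 8 sympathetic neuron and chromaffin markers on each of the 10 arrays, suprarenal on the left and infrarenal on the right; the axis begins at the floor of -5.17. Rab3b and Rab3c stand between 2.16 and 3.88 on arrays S1, S11, I8 and I12 and at most 0.22 on the other 6, the same arrays on which the marker mean is between 2.08 and 3.12, while Rab3a stays between 2.04 and 2.88; Rab3c points below -1.59 are dim readings with no exact level.

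The sequences before the start sites of Rab3b and Rab3c are shown because these genes were high on the same arrays. They lie in GRCm38.p6 at chr4:108878820-108879069 on the plus strand and chr13:110280207-110280456 on the minus strand, with the same motifs in capitals.
Rab3b: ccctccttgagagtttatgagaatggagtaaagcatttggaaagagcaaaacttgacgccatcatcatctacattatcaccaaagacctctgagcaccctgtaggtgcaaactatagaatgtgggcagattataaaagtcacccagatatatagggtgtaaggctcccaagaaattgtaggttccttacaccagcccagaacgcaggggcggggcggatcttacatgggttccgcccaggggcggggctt
Rab3c: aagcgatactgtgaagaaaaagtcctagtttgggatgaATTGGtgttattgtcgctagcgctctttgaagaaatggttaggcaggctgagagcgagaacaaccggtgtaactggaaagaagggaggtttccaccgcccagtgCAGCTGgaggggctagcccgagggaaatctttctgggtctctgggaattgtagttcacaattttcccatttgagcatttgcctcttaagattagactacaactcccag
The Rab3b window held none of the motifs, and that of Rab3c held 1 CCAAT box at -212 and 1 E2 box at -108. Their GC contents were 48.8% and 47.6%, beside 64.0% for Rab5a and 63.2% for Rab4b.

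The other Rab3 genes behaved unlike this pair in range. Rab3a, the main Rab of synaptic vesicles, read 2.21, 2.04, 2.09, 2.26 and 2.47 in infrarenal and 2.88, 2.21, 2.06, 2.65 and 2.55 in suprarenal pools 1, 6, 8, 11 and 12. It was highest on suprarenal array 1, where the neuron markers were highest too, and its difference was -0.26 ± 0.11 (SE, n = 5 pools). Rab3d, of secretory granules in gland and mast cells, read 0.43, 0.61, 0.25, 0.60 and 0.14 below and 0.60, 0.87, 0.42, 0.65 and 1.10 above the kidneys. It was lower below the kidneys in every pool, by -0.96 in pool 12 and between -0.26 and -0.05 in the others, with a difference of -0.32 ± 0.15 (SE).

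Rab27b, which docks granules in mast cells, platelets and other secretory cells, read 3.02, 3.07, 3.01, 3.50 and 2.80 in infrarenal and 3.23, 2.22, 2.64, 2.68 and 3.43 in suprarenal pools 1, 6, 8, 11 and 12. The difference was 0.24 ± 0.22 (SE), positive in 3 pools and negative in pools 1 and 12. The second, dimmer Rab27b probe gave 0.03 ± 0.30 (SE). It was positive in pool 1, at 0.50, and negative in pool 8, at -0.25, so the signs in these pools depend on the probe. The mean of 7 mast cell markers differed by 0.28, 0.33, 0.65, 0.60 and -0.60 in pools 1, 6, 8, 11 and 12. That of 9 skeletal muscle markers differed by -2.27, 2.38, 0.85, 3.36 and -2.77 in the same order. In pool 1 the mast cell mean had the other sign than the first Rab27b probe. The part of mast cells and of skeletal muscle was not tested. Rab27a, the melanosome and lytic granule paralogue, was among the dimmest 30% and differed by -0.08 ± 0.35. The trafficking genes Rab8a, Rab8b, Rab10 and Rab13, which carry vesicles to the plasma membrane, differed by -0.28, -0.07, -0.14 and -0.02, and the second Rab10 probe by -0.42. Rab44 differed by -0.12 ± 0.19, and Rab37, among the dimmest 30%, by -0.23 ± 0.43 (SE).

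The last group held 7 genes of lysosome-related organelles, cilia and other sites, 5 of them negative. Rab32 and Rab38, which deliver enzymes to melanosomes and related organelles, differed by -0.15 ± 0.12 and -0.10 ± 0.11 (SE). Rab23, a regulator of Hedgehog signalling, differed by -0.08 ± 0.16, Rab28 by -0.18 ± 0.14, Rab40b by -0.23 ± 0.14 and Rab40c by 0.04 ± 0.13 (SE). Rab29, which recruits the kinase Lrrk2, differed by 0.03 with 1 probe and by -0.14 with the other. Of the 11 genes with 2 probes, 8 had the same sign on both.

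Genes that load, unload or follow Rab proteins were read from lists of 151 genes, 133 of them measured. With limma 0 of the 133 passed after adjustment; at an unadjusted p under 0.05 there were 5 negative and 1 positive, beside 5.89% and 2.17% of all genes. Their median difference was -0.07, and 89 were negative, or 66.9%. Of all genes 60.4% were negative, with a median of -0.05. Outside the dimmest 30% of probes 66.5% of all genes were, with a median of -0.07. Among the 133, 10 had probes in the dimmest 30%, so this share was close to that of all brighter genes. The counts by list below stand beside the same shares. The membrane cycle, made up of the escort, prenylating and extraction proteins common to all Rabs, had a median of -0.08 over 7 genes. Among them Chml, an escort protein, differed by -0.27 ± 0.12, Gdi2, which extracts Rabs from membranes, by -0.15 ± 0.08 and Rabggtb, of the prenylating enzyme, by -0.16 ± 0.09 (SE).

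Exchange factors had a median of -0.10, with 25 of 33 negative. Rab3ip, which activates Rab8, differed by -0.28 ± 0.12, Hps4, of the exchange factor for Rab32 and Rab38, by -0.30 ± 0.13 and Ccz1, of that for Rab7, by -0.19 ± 0.10 (SE). GTPase-activating proteins had a median of -0.06, with 18 of 27 negative, and the smallest p-values belonged to Tbc1d14 at -0.22, Tbc1d15 at -0.25 and Tbc1d22a at -0.14.

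Effectors of early endosomes had a median of -0.01 (8 of 13 negative), with Vps45, which acts with the SNAREs of endosomes, at -0.18 ± 0.08 and the 2 rabaptin genes Rabep1 and Rabep2, which bind Rab5, at -0.18 ± 0.13 and 0.34 ± 0.16 (SE). Late endosome effectors had a median of -0.10 (9 of 13 negative). Rilp, the Rab7 effector that links to dynein, differed by -0.36 ± 0.13 (SE). Vps33a, of the tethering complex of lysosomes, differed by -0.36 ± 0.12 and Plekhm2 by -0.13 ± 0.07 (SE). Each of the 3, named for the smallest p of the list, was negative in 5 of 5 pools. Over all 133 measured partner genes 8 were negative in every pool, or 6.02%, beside 6.23% of all genes. Recycling effectors had a median of 0.02 (7 of 16 negative), with the Rab11 effector Rab11fip5 at -0.21 ± 0.08, negative in 5 of 5 pools, Mical1 at 0.19 and Myo5b at 0.27. Golgi effectors had a median of -0.09 (8 of 9 negative), with Tmf1 at -0.33, Bicd2 at -0.14 and Uso1 at -0.16. Exocytosis effectors had a median of -0.04 (8 of 15 negative), with Myo5a, a myosin motor, at -0.35 ± 0.14, the dim Rims1 at 0.51 ± 0.21 and Sytl5 at 1.10 ± 0.61 (SE).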

How the data were processed

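RNA of 10 pooled samples was hybridised to 1 array each and read in 1 colour. Per the labels' protocols, poly(A) RNA was amplified into biotin-labelled cRNA and stained with Cy5-streptavidin. The authors deposited 1 intensity per probe and array on a linear scale, with array medians near 1. How the arrays were scanned, background-corrected and scaled is unstated in the labels. Of the values, 1968 were missing and 1755 at or below 0. Values below 0.0278 (percentile 1 of positive values) were raised to it, then log2 was taken. Probes with at least 3 values per region were kept, 36061 of 36227. The platform annotation named the genes, and RefSeq (GRCm38.p6) brought symbols up to date by Entrez identifier: 21615 probes had 1 symbol, 681 several and 13931 none. No Rab gene was lost by this filter.

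The regional test was two-sided, with lmFit and trended eBayes of limma 3.58.1 (R 4.3.3). Its block was the pool, since the same mice gave both parts, with Benjamini-Hochberg adjustment over all probes. As a check of the pairing, the 2 arrays of a pool had correlations of their deviations between -0.093 and 0.045. No signal shared by the 2 parts of a pool was seen in these values, so the block rests on the design alone. Tested on 35714 simulated probes, the fit recovered 8%, 56%, 88% and 90% of 50 probes changed by 0.5, 1, 2 and 3 log2 units. Members, marker and partner lists were chosen with earlier results of these data known. Rab genes with full values were Rab5a and its paralogues, those with an unadjusted p under 0.05 or 1 sign in every pool, and the 5 of widest range outside the dimmest 30%; of each partner list, the 3 of smallest p were named. Other genes given by array (Rab7, Rab3a and the single neuron markers) were chosen after their values were seen. Alternatives were no replicate block, quantile normalization, an offset of 0.2701 for the floor, the dimmest 30% left out, array weights, a fit without the trend, RNA input as a covariate, all probes of a gene averaged and each pool left out.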

Additional observations from a re-analysis of the deposited data

Results flagged for a closer look

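Each set of 5 arrays from 1 region was examined for an array far from the other 4, over 134 sets (112 of Rab genes and 22 of marker scores). There were 7, where chance gives about 1 in 20 sets, or 6.7. Rab24 read 3.73 on suprarenal array 6 against 3.13 to 3.26 on the others, and Rab4b read 5.03 on suprarenal array 8 against 4.77 to 4.85. On suprarenal array 12, Rab30 read 2.60 against 2.19 to 2.30 and Rab43 read 0.587 against 0.346 to 0.385. Rab31 read 3.41 on infrarenal array 1 against 3.68 to 3.77. The brown adipocyte score read 2.94 on suprarenal array 12 against 4.93 to 5.45, and the Schwann cell score 4.27 on suprarenal array 1 against 3.46 to 3.62.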

How the results depend on the processing

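No Rab gene had an adjusted p under 0.05 under any alternative run, and 1 probe had after quantile normalization. The count of Rab genes with an unadjusted p under 0.05 was 4 on all arrays, where 8.05% of all genes passed. It was 9 with no replicate block, where 7.81% of all genes passed, and 1 with no variance trend, where 5.69% did. It was 10 with RNA input as a covariate and ran from 2 to 13 with 1 pool left out. The shares of all genes beside the 2 and the 13 are given in the Results. None is given beside the 10, so that count cannot tell the family from a shift in all genes. The count with 1 sign in every pool, 7 on all arrays, ran from 8 to 18 with 1 pool left out, where fewer pools have to share a sign; fits that leave the values as they are give no new count. The count of negative Rab genes lay between 38, after quantile normalization, and 47. Of all genes, 49.7% were negative after quantile normalization and 60.4% without it. No share of all genes is given beside the 47 or the range from 8 to 18, so these cannot set the family apart. Over 14 named Rab genes and 13 alternatives, 9 of 182 differences had the other sign, all of Rab3b, Rab3c, Rab17 and Rab5c. Among 24 named partner genes 2 of 311 had.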
